A study of Mus musculus with 60 samples.

Results

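The transcriptomes of calf muscle from 2 mouse models of muscular dystrophy were compared directly at 3 months of age. Largemyd mice are the series' model of dystroglycanopathy and Dmdmdx mice its model of Duchenne muscular dystrophy. The comparison rests on the 5 Largemyd and 5 Dmdmdx arrays of 3 months, 10 of the 60 arrays in the series, selected by their labelled lineage and age. All 10 mice were labelled male and untreated, and each array held RNA from the frozen, powdered calf of 1 mouse. C57Bl/6 mice, the normal control, and the double mutant Dmdmdx/Largemyd were measured alongside (5 arrays each), and the series repeats the 4 lineages at 21 days and 6 months. The labels do not state the background strain of the mutant lines. Strain and mutation therefore cannot be told apart. Mice are numbered 1 to 5 within a lineage, and these numbers are only names. Levels are log2 RMA values, so a difference of 1 is 2-fold. Each difference below is Largemyd minus Dmdmdx, with its standard error and a limma moderated test adjusted by Benjamini-Hochberg over 19938 genes. A gene is called when this adjusted p is under 0.05.

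Dystrophin is a long protein that ties the actin cytoskeleton of the muscle fibre to dystroglycan in the surface membrane, and dystroglycan in turn binds laminin in the basement membrane that sheathes the fibre. Dmdmdx mice lack dystrophin, so the inner end of this link is broken. In a dystroglycanopathy the sugar chain on alpha-dystroglycan is not completed, and the outer end, its grip on laminin, is lost. In both diseases fibres die and regenerate, macrophages and other leukocytes enter, and connective tissue builds up.

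All 10 arrays read as skeletal muscle: Ckm, muscle creatine kinase, lay between 13.31 and 13.71, and Acta1, skeletal actin, between 13.52 and 13.88. Several Dmdmdx arrays stood apart from their labels or from each other. Xist, the RNA that coats an inactive X chromosome, read 10.98 and 11.84 in Dmdmdx replicates 4 and 5 against 4.99 to 5.24 in the other 3 and 4.86 to 5.41 in Largemyd. Uty, a Y-linked gene, read 3.98 and 4.12 in the same 2 arrays and 8.22 to 8.85 in the other 8. These 2 arrays thus go against the male label. Markers of marrow and neutrophils (20 genes) averaged 9.80 in Dmdmdx replicate 3 and 11.24 in replicate 5, against 6.65 to 8.12 in the other Dmdmdx arrays and 6.44 to 7.11 in Largemyd; C57Bl/6 arrays ranged from 7.74 to 10.68. B and plasma cell markers (16 genes) averaged 9.73 in Dmdmdx replicate 5 and 6.44 to 7.09 in the other 9 arrays. Bone markers (11 genes) averaged 8.62 and 9.52 in Dmdmdx replicates 3 and 5, and 7.39 to 7.83 in the other 8. Genes of fast fibres (22 genes) averaged 11.74 in Dmdmdx replicate 5 and 12.53 to 12.65 in the other 9 arrays, so that this array was low for muscle transcripts and high for lymphoid and marrow ones. Calls are therefore also given without Dmdmdx replicate 5, and the part of these tissues in each result was not tested. In a bulk sample, fewer cells of a type and less RNA per cell cannot be told apart.

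Across the 19938 genes, 845 were called (4.24%), 640 higher in Largemyd (3.21%) and 205 lower (1.03%). Of these, 43 differed by at least 2-fold. The higher genes were 75.7% of the calls, and 61.3% of the 649 calls once each array's median was subtracted. The median over all genes was 0.05 and 12525 of them were above 0. In 1433 genes (7.19%) the 5 Largemyd arrays did not overlap the 5 Dmdmdx arrays, and 616 genes (3.09%) were both called and free of overlap. Every Largemyd array lay above every Dmdmdx array in 4.77% of all genes and below in 2.41%. Dmdmdx replicate 5 weighed heavily in these counts. Without it 227 genes were called (1.14%), 171 higher (0.858%) and 56 lower (0.281%), and 212 of the 845 remained among them. Without Dmdmdx replicates 3, 4 and 5 together, 49 genes were called (0.246%), 32 higher (0.16%) and 17 lower (0.0853%). Without the arrays of high Xist 127 were called (0.637%), and with array weights 1862 (9.34%). In all but 1 of 20 alternative settings, the sign held for each of the 845 genes that the setting tested. The exception averaged the probe sets of a gene and kept the sign for 99.9%. A filter on low genes left 16781 genes to test. The bar plot of calls by setting shows this range.

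**Figure D1:**
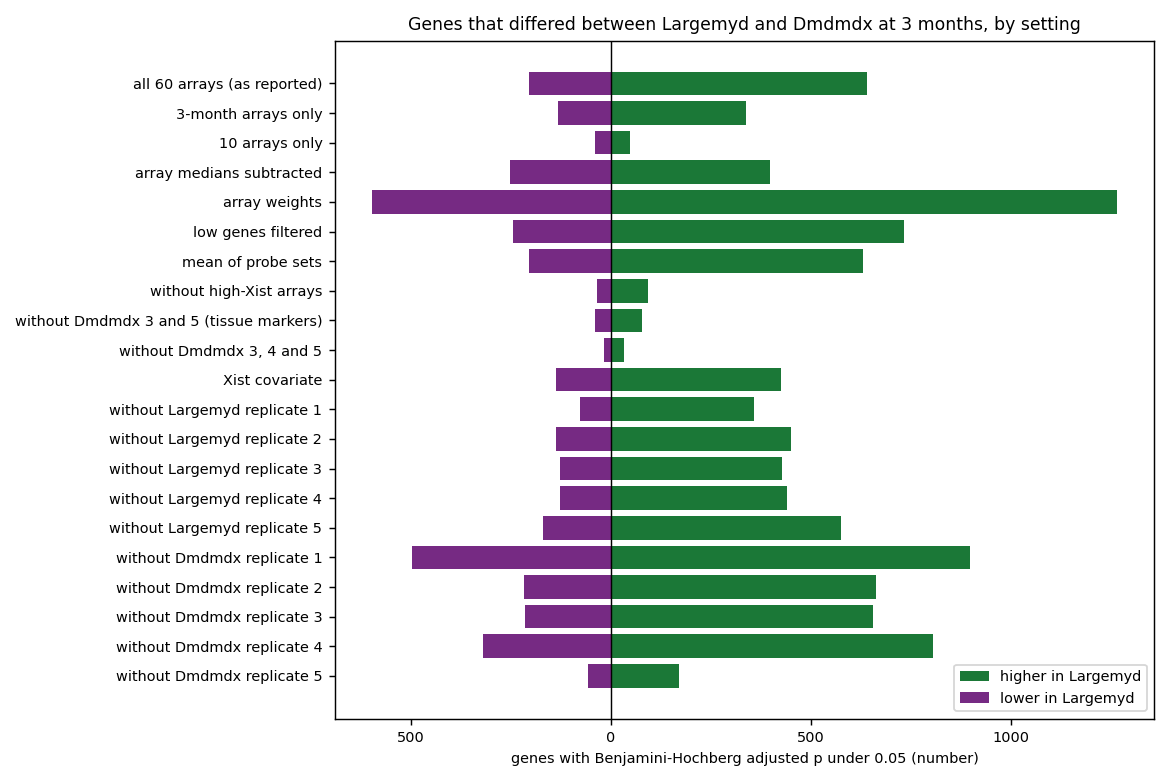
Number of genes called higher (green, to the right) or lower (purple, to the left) in Largemyd than in Dmdmdx at 3 months, for the reported fit over 60 arrays and 20 alternative settings. The total runs from 49 without Dmdmdx replicates 3, 4 and 5 to 1862 with array weights, against 845 as reported.

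Dmd, which encodes dystrophin and carries the mutation of the Dmdmdx line, was 2.12-fold higher in Largemyd. Its 5 Largemyd arrays read 9.29, 9.59, 9.56, 9.47 and 9.43, and its 5 Dmdmdx arrays 8.56, 8.60, 8.70, 8.65 and 7.41. The groups did not overlap, with replicate 5 the lowest of the Dmdmdx arrays. The difference was 1.08 ± 0.18 (adjusted p = 8.5e-05), and it was 0.84 without replicate 5, where Dmd was still called. It was called in 19 of 20 settings and missed only in a fit of the 10 arrays alone (adjusted p = 0.067, in a range from 3.5e-07 to 0.067 over the settings). Double mutants averaged 8.64 and C57Bl/6 mice 9.73. Utrn, which encodes utrophin, a relative of dystrophin that can take its place at the membrane, averaged almost the same level in both lines (-0.04 ± 0.07, adjusted p = 0.81). Dag1, the precursor of both dystroglycan subunits, was not called (0.27 ± 0.10, adjusted p = 0.11). Its Largemyd arrays read 11.32, 11.27, 11.34, 11.34 and 11.17 and its Dmdmdx arrays 11.05, 11.14, 11.14, 11.29 and 10.45; the difference was 0.13 without replicate 5. Sgca, a sarcoglycan of the same complex, gave 0.44 ± 0.17 (adjusted p = 0.12) and 0.11 without that array.

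Dmd was the sole called gene among 22 measured members of the dystrophin complex list, against 3.21% of all genes called higher. The median difference of the list was 0.18, and 0.03 without replicate 5. Among 14 measured genes for enzymes and substrate carriers that build the laminin-binding sugar chain of dystroglycan, 3 were higher, against 3.21% of all genes, and none was lower, and the median was 0.11. Pomgnt1, which adds N-acetylglucosamine to the O-linked mannose, was 0.42 ± 0.11 higher (adjusted p = 0.017). Pomgnt2, which extends the O-linked mannose that carries the laminin-binding end, was 0.37 ± 0.09 higher (adjusted p = 0.016). Dolk, dolichol kinase, which feeds the mannose donor, was 0.32 ± 0.08 higher (adjusted p = 0.012). None of the 3 was called without replicate 5, where the differences were 0.25, 0.27 and 0.23.

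The 12 largest rises without overlap, predicted and clone names left out, were led by H2-Ea, Klk1b22 and Hal. H2-Ea, a class II histocompatibility chain that presents peptides to T cells, read 11.99, 12.11, 12.28, 12.04 and 11.34 in Largemyd and 6.35, 5.85, 5.90, 6.02 and 6.08 in Dmdmdx, a 60.2-fold difference (5.91 ± 0.89, adjusted p = 1.5e-05). It was high in every Largemyd array and low in every Dmdmdx array, and C57Bl/6 averaged 6.01. Double mutants were split, at 11.78, 12, 6.02, 6.22 and 11.78 in mouse order. Klk1b22, a kallikrein protease of a family of near-identical genes, so that its probes may read relatives, was at 9.38, 8.75, 8.16, 8.27 and 8.35 in Largemyd against 5.45, 5.10, 4.93, 5.28 and 5.03 in Dmdmdx. It was 10.7-fold higher (3.43 ± 0.46, adjusted p = 1.4e-06), and double mutants (5.32) and C57Bl/6 (5.53) lay with Dmdmdx. Hal, histidine ammonia-lyase, which breaks down histidine, read 9.62, 10.18, 10.10, 10.06 and 8.64 in Largemyd and 6.50, 6.52, 6.61, 6.63 and 6.45 in Dmdmdx (9.04-fold, 3.18 ± 0.56, adjusted p = 0.0003). It too was split among the double mutants, at 9.28, 9.66, 6.34, 9.93 and 6.67, and C57Bl/6 averaged 6.36. In all 3 genes every Largemyd array lay far above every Dmdmdx array.

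The other 9 rises were smaller. Pttg1, securin, which holds sister chromatids together until they part, was 2.34-fold higher (1.23 ± 0.13, adjusted p = 8.7e-09). Its Largemyd arrays read 9.09 to 9.33 and its Dmdmdx arrays 7.74, 7.95, 7.75, 7.69 and 8.86; C57Bl/6 averaged 9.70 and double mutants 7.56, so for this gene both lines with the Dmd mutation lay low. Ocel1 differed by 1.09 ± 0.08 (adjusted p = 2.6e-14), with Largemyd at 8.96 to 9.26 and Dmdmdx at 7.89 to 8.16. Here double mutants (9.09) lay with Largemyd and C57Bl/6 (7.94) with Dmdmdx. Ucp3, an uncoupling protein of muscle mitochondria, was 1.14 ± 0.25 higher (adjusted p = 0.004), and Fabp3, which carries fatty acids inside fibres, 0.94 ± 0.21 higher (adjusted p = 0.0058). Hmcn2, a hemicentin, and Fbln7, a fibulin, both secreted matrix proteins, were 1.01 ± 0.18 and 0.94 ± 0.17 higher (adjusted p = 0.00027 and 0.0003). Cd59a, which shields cells from complement, was 0.97 ± 0.18 higher (adjusted p = 0.00083) and Serinc2 1.05 ± 0.19 higher (adjusted p = 0.00037). Of the 12 rises, 11 were also called without Dmdmdx replicate 5; Fabp3 was not (0.52).

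Of the 12 largest falls without overlap, chosen in the same way, 5 were called without Dmdmdx replicate 5. Chil3, a chitinase-like protein secreted by macrophages and neutrophils, was 8.70-fold lower in Largemyd (-3.12 ± 0.83, adjusted p = 0.02). Largemyd arrays read 4.79, 4.35, 4.60, 4.38 and 4.76 and Dmdmdx arrays 7.09, 5.91, 8.51, 6.50 and 10.47. The Dmdmdx arrays were widely spread, the highest being replicates 5 and 3, the arrays with marrow markers, and the difference was -2.43 without replicate 5, where it was not called. Ly6a2, of the near-identical Ly6 family, was also highest in replicates 5 and 3 among Dmdmdx arrays (8.62, 7.04, 10.71, 6.85 and 12.02), above Largemyd arrays at 5.37 to 6.78 (-3.05 ± 0.90, adjusted p = 0.039). Ms4a4c, a membrane protein of leukocytes, was 1.98 ± 0.48 lower on the log2 scale (adjusted p = 0.01), and Slfn4 and Slfn1, of the Schlafen family, 1.81 ± 0.53 and 1.55 ± 0.47 lower (adjusted p = 0.037 and 0.047). Ifi209, an interferon-inducible gene of a family of close copies, was 1.90 ± 0.58 lower (adjusted p = 0.046). These 4 were not called without replicate 5, with differences of -1.76, -1.32, -1.21 and -1.53.

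Cyp4f18, a cytochrome P450 of myeloid cells that oxidises leukotriene B4, was the largest fall that did not rest on that array. Its Largemyd arrays read 6.88, 6.79, 6.66, 6.55 and 6.75 and its Dmdmdx arrays 8.48, 8.85, 8.87, 8.47 and 9.70, 4.43-fold apart (-2.15 ± 0.37, adjusted p = 0.00018) and -1.94 without replicate 5. It was called in 19 of 20 settings. Nxpe4 read 5.91, 6.29, 6.41, 6.37 and 6.31 in Largemyd and 7.80, 7.65, 7.68, 7.80 and 7.61 in Dmdmdx (-1.45 ± 0.18, adjusted p = 3.1e-07). Lrmda, named for melanocyte differentiation, read 6.51 to 6.83 in Largemyd and 7.96 to 8.20 in Dmdmdx (-1.41 ± 0.14, adjusted p = 1.3e-09). For both genes C57Bl/6 (7.98 and 7.80) and double mutants (7.82 and 8.12) lay with Dmdmdx, so that Largemyd alone was low. Sh2d1b1, an adaptor of lymphocyte receptors, read 5.20 to 5.85 in Largemyd and 6.60 to 7.27 in Dmdmdx (-1.31 ± 0.25, adjusted p = 0.00074). Snord73b, a small nucleolar RNA, was 1.56 ± 0.34 lower on the log2 scale (adjusted p = 0.004), with Largemyd replicate 1 at 5.65 and the other 4 at 7.24 to 7.67 against 8.32 to 8.93 in Dmdmdx.

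**Figure D2:**
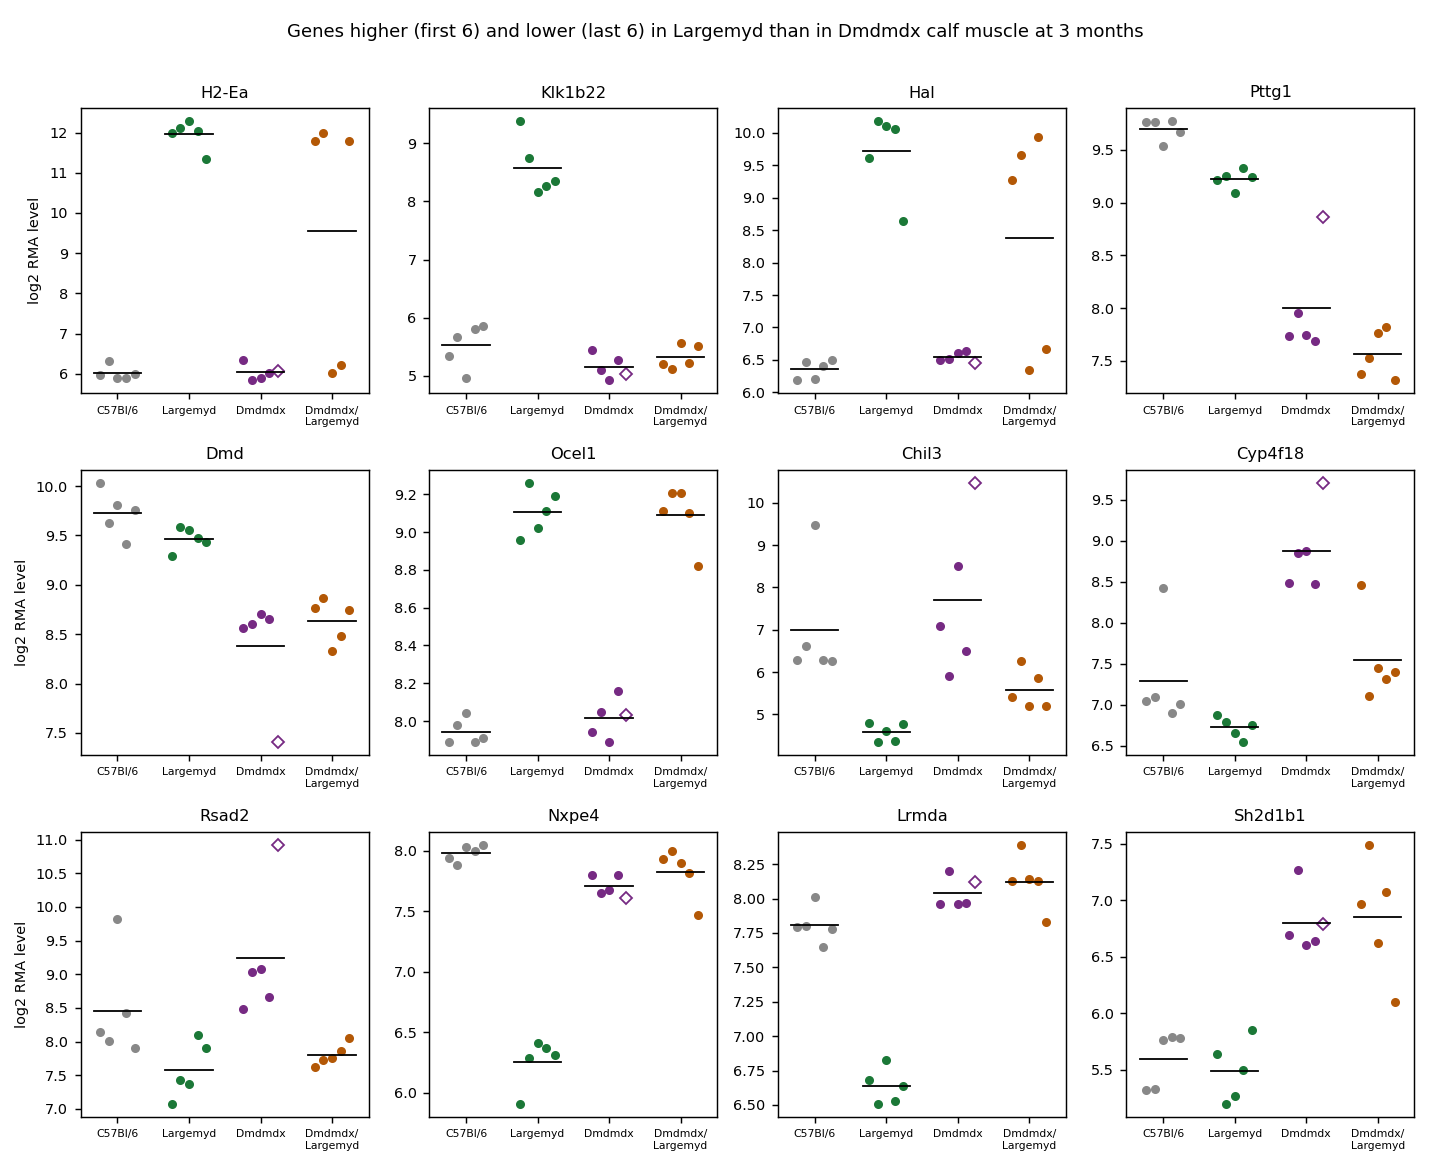
Level (log2 RMA) of 12 genes in each array of 3 months, by lineage, with black lines at the group means; the open diamond is Dmdmdx replicate 5. The first 6 genes are higher and the last 6 lower in Largemyd than in Dmdmdx without overlap; H2-Ea and Hal are split among the Dmdmdx/Largemyd mice, and Chil3 and Rsad2 are highest in Dmdmdx replicate 5.

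In all, 29 genes were called in every setting, 19 higher and 10 lower in Largemyd, and none of the 29 had overlapping arrays. They were chosen by this agreement after their values were seen, so it is no separate support for them. Among the 19 higher genes, besides H2-Ea, Klk1b22, Hal, Pttg1 and Ocel1, were several enzymes. Glo1, glyoxalase, which clears methylglyoxal, read 10.90, 10.94, 10.99, 10.90 and 10.58 in Largemyd and 10.19, 10.05, 10.05, 10.22 and 9.72 in Dmdmdx (0.81 ± 0.11, adjusted p = 3.2e-06). Ech1, an enzyme of unsaturated fatty acid oxidation, was 0.65 ± 0.10 higher (adjusted p = 6.1e-05), and Fam20b, a xylose kinase that acts on the linker of proteoglycan chains, 0.50 ± 0.06 higher (adjusted p = 2.1e-07). Galnt11, which starts mucin-type O-glycans, was 0.39 ± 0.05 higher (adjusted p = 1.4e-06). Both lie in glycan synthesis but outside the dystroglycan list. The palmitoyltransferase Zdhhc18 was 0.82 ± 0.12 higher (adjusted p = 1.3e-05).

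Membrane and adhesion genes made up part of the rest. Fblim1, a partner of filamin at cell-matrix junctions, read 8.25 to 8.45 in Largemyd and 7.38 to 7.60 in Dmdmdx (0.85 ± 0.08, adjusted p = 4.2e-10). Fgfrl1, a fibroblast growth factor receptor without a kinase, was 0.90 ± 0.13 higher (adjusted p = 4.2e-06) and Parm1, a mucin-like protein, 0.90 ± 0.15 higher (adjusted p = 0.00016). Adcyap1r1, the receptor of the neuropeptide PACAP, was 0.67 ± 0.09 higher (adjusted p = 4.2e-06). G530011O06Rik on the X chromosome, left out of the 12 rises for its clone name, was 2.04 ± 0.30 higher (adjusted p = 9.6e-06). The lower genes included Ada, adenosine deaminase, at 7.44 to 7.58 in Largemyd and 7.96 to 8.41 in Dmdmdx (-0.61 ± 0.10, adjusted p = 0.0002). Arl14ep was 0.96 ± 0.10 lower on the log2 scale (adjusted p = 3.8e-09), B3gnt3, a glycosyltransferase, 0.73 ± 0.10 lower (adjusted p = 9.7e-07) and Lsm4, a splicing and RNA decay protein, 0.38 ± 0.07 lower (adjusted p = 0.00061). Olfr1372-ps1, an olfactory receptor pseudogene whose probes may read relatives, was 1.14 ± 0.14 lower (adjusted p = 1.1e-07).

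By the order of genes in the RefSeq table (GRCm38.p6), several of the 29 shared a chromosome. Lsm4, Ocel1 and B3gnt3 are on chromosome 8 with 18 and 19 tested genes between neighbours, and did not move one way: Ocel1 was higher and the other 2 lower in Largemyd. Zdhhc18, Nipal3 and Fblim1 on chromosome 4 were all higher, with 36 and 101 tested genes between neighbours. Galnt11, Parm1 and Fgfrl1 on chromosome 5 were higher too, with 377 and 119 between. On chromosome 17, Glo1, H2-Ea and Ppp1r11 were all higher, with 94 and 110 genes between. Whether the 29 lie closer together than other tested genes was not tested.

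At 21 days 26 of the 29 were also called in the same direction, at 6 months 20 were, and 19 were called at all 3 ages. Over all genes 8.94% were called at 21 days and 14.3% at 6 months. Of all 845 genes called at 3 months, 261 and 192 were called in the same direction at these ages. The 29 were picked for their stable calls, and the ages share the same estimate of each gene's spread. Ocel1 gave 1.08, 1.09 and 1.02 in order of age. Glo1 gave 0.99 at 21 days and 0.81 at 3 months but 0.01 at 6 months, and the difference between 3 and 6 months was called (0.80, adjusted p = 0.0011), though not without the arrays of high Xist. Lrrc3b was 0.88 ± 0.11 higher at 3 months (adjusted p = 1.5e-07) and 0.23 at 21 days. That difference between ages was called as well (0.65, adjusted p = 0.042), though not without the arrays of high Xist.

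**Figure D3:**
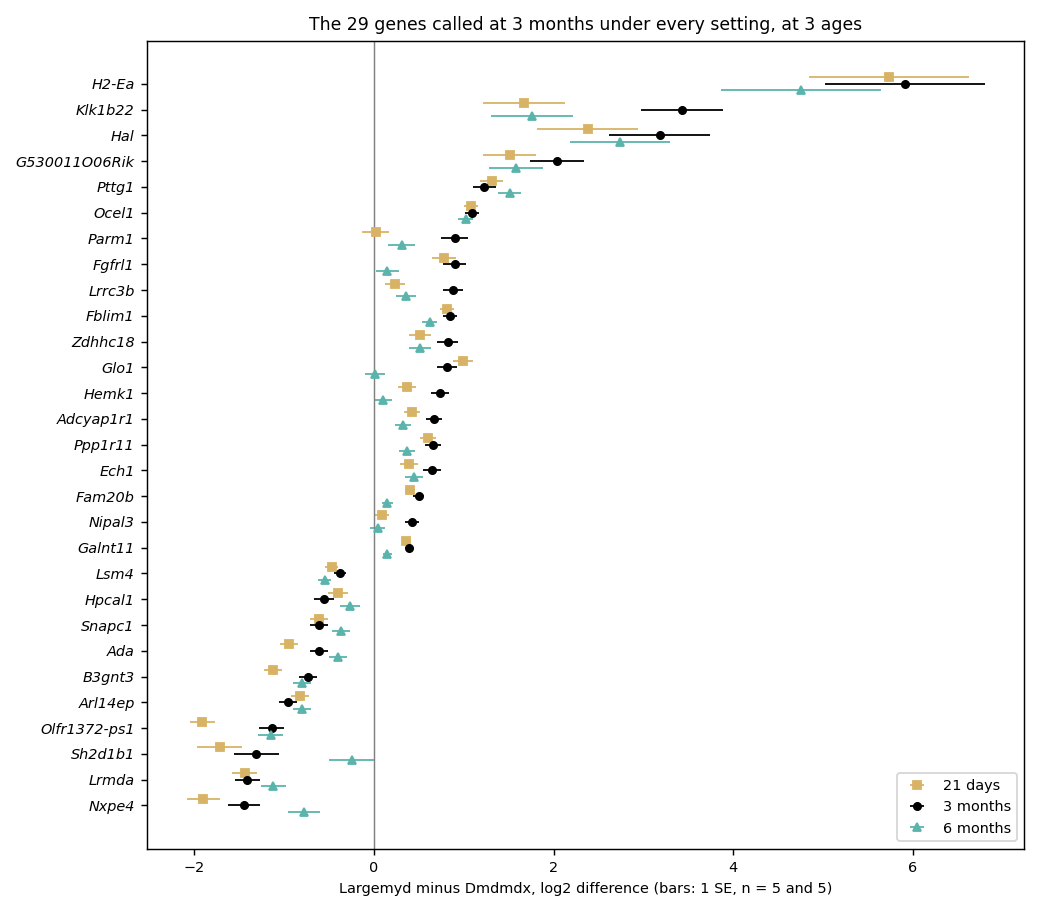
Largemyd minus Dmdmdx log2 difference (± 1 SE, 5 and 5 arrays) at 21 days, 3 months and 6 months for the 29 genes called at 3 months in every setting. H2-Ea is highest at each age (5.74, 5.91 and 4.76), Ocel1 lies between 1.02 and 1.09, and Glo1 and Fgfrl1 lie near 0 at 6 months (0.01 and 0.15).

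Basement membrane genes were higher in Largemyd as a group. Of 21 measured laminins, type IV and VI collagens and their partners, 13 were called higher against 3.21% of all genes, none lower, and all 21 differences were above 0 with a median of 0.44. The mean over the list was 10.02, 9.96, 10.02, 10.02 and 9.94 in Largemyd and 9.68, 9.69, 9.68, 9.69 and 9.20 in Dmdmdx. Replicate 5 was the lowest, and every Largemyd array lay above every Dmdmdx array. C57Bl/6 arrays averaged 9.18 to 9.52 and double mutants 9.99 to 10.11. Without replicate 5 the median was 0.35 and 5 members were called, Nid2, Lama2, Col4a1, Col4a2 and Col18a1. The 5 Largemyd arrays lay above all 5 Dmdmdx arrays for 14 of the 21 genes, against 4.77% of all genes. Without replicate 5 the count was 15, against 5.66%, and leaving out an array cannot lower it.

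Col6a3, a chain of the type VI collagen that links basement membrane to the matrix around it, showed the largest difference. Largemyd arrays read 10.92, 11, 11.20, 11.09 and 10.87 and Dmdmdx arrays 10.36, 10.67, 10.56, 10.02 and 9.30 (0.83 ± 0.18, adjusted p = 0.0038; 0.61 without replicate 5). Lama2, the laminin chain of muscle basement membrane that dystroglycan binds, read 10.57, 10.68, 10.64, 10.69 and 10.88 in Largemyd and 10.35, 10.20, 10.23, 10.32 and 9.06 in Dmdmdx (0.66 ± 0.14, adjusted p = 0.002; 0.42 without replicate 5). For both genes the groups were separate, which leaving out the lowest Dmdmdx array cannot undo. Col6a3 was not called without that array (adjusted p = 0.058). Nid2 and Nid1, the nidogens that bridge laminin and collagen, were 0.68 ± 0.13 and 0.56 ± 0.14 higher (adjusted p = 0.00059 and 0.013). Col4a1 and Col4a2, which form the main collagen network of the basement membrane, were 0.56 ± 0.11 and 0.55 ± 0.11 higher (adjusted p = 0.0012 and 0.0015), the latter named after its values were seen. Col15a1, a collagen at the outer face of the membrane, was 0.65 ± 0.19 higher (adjusted p = 0.035). The remaining called members, Lamc1, Lamb1, Col18a1, Col6a1, Hspg2 and Lamb2, differed by 0.33 to 0.48. Not every member stood apart: Agrn, agrin, gave 0.03 ± 0.07 (adjusted p = 0.81) and Lama5 0.06 ± 0.09 (adjusted p = 0.75).

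Interstitial matrix genes gave few calls. Among 35 fibrillar collagens and other interstitial proteins, 2 were higher and 1 was lower, against 3.21% and 1.03% of all genes, and the median was 0.13. Mfap4, a microfibril protein, was 0.87 ± 0.26 higher (adjusted p = 0.045), and Thbs4, a thrombospondin also on the tendon list, 0.48 ± 0.15 higher (adjusted p = 0.045). Lox, which crosslinks collagen and elastin, was lower, with Largemyd at 9.44, 9.95, 9.81, 9.77 and 10.13 and Dmdmdx at 10.36, 10.40, 10.09, 10.49 and 10.36 (-0.52 ± 0.15, adjusted p = 0.034). None of the 35 was called without replicate 5. Of 19 markers of fibro-adipogenic progenitors and fibroblasts, 5 were higher, against 3.21% of all genes, and none lower (median 0.27). They were Col15a1, Smoc2 (0.65 ± 0.14, adjusted p = 0.0041), Clec3b (0.56 ± 0.17, adjusted p = 0.038), Fbln2 (0.49 ± 0.14, adjusted p = 0.033) and Pdgfrb (0.36 ± 0.09, adjusted p = 0.013), and none was called without replicate 5, where the median was 0.23. The list averaged 10.26 to 10.41 in Largemyd and 9.85 to 10.31 in Dmdmdx. Among 27 matrix and lysosomal proteases and inhibitors, 1 was higher and 1 lower, against 3.21% and 1.03% of all genes. Mmp19 was higher (0.75 ± 0.18, adjusted p = 0.0074) and Ctsh, cathepsin H, lower (-0.65 ± 0.19, adjusted p = 0.033). Neither was called without replicate 5, where they gave 0.57 and -0.65.

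**Figure D4:**
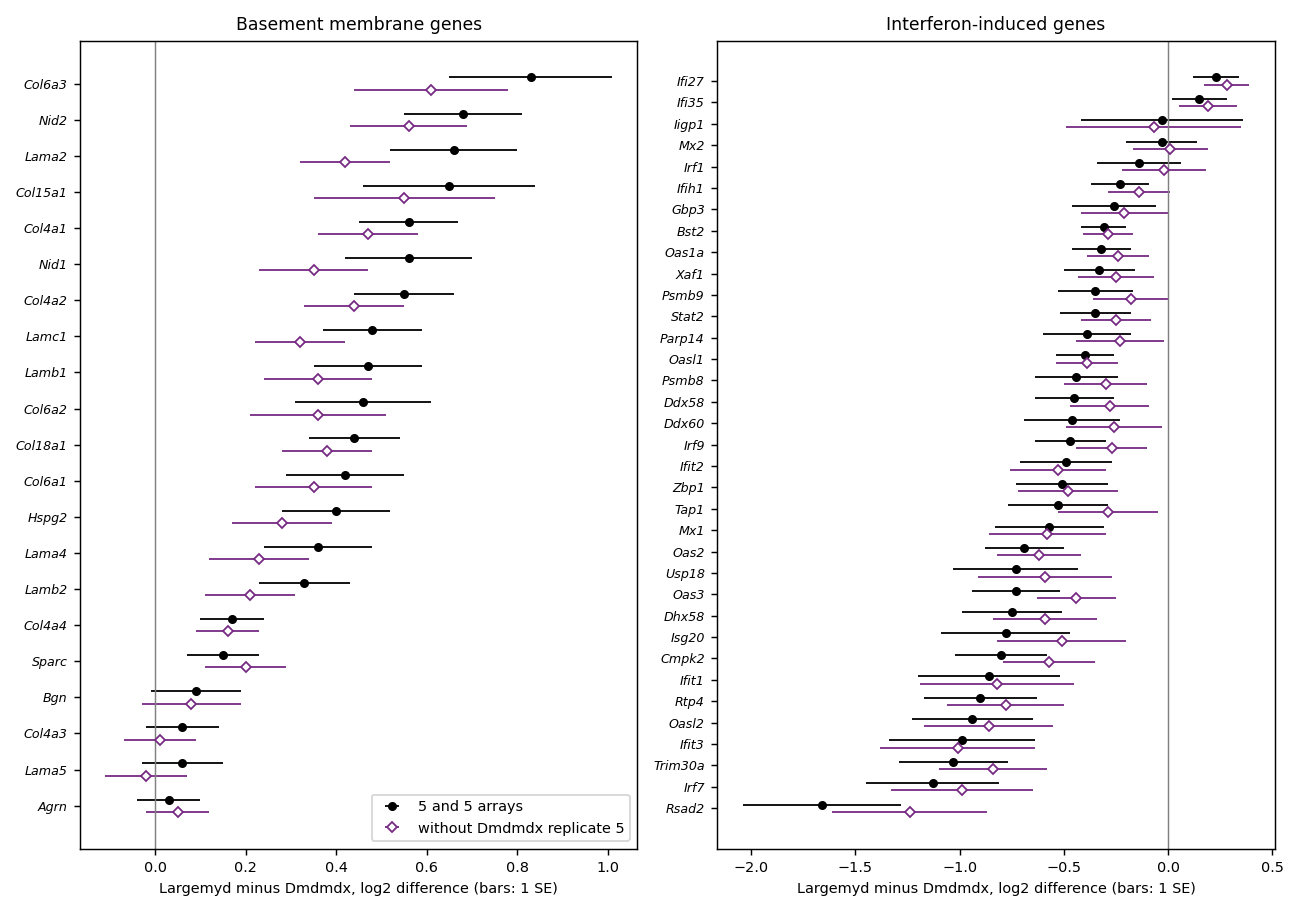
Largemyd minus Dmdmdx log2 difference (± 1 SE) at 3 months for each measured basement membrane gene (left) and interferon-induced gene (right), over 5 and 5 arrays (filled circles) and without Dmdmdx replicate 5 (open diamonds). All 21 basement membrane circles lie above 0, with a median of 0.44 that becomes 0.35 without that array, and 33 of the 35 interferon circles lie below 0.

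Genes of fatty acid use were higher in Largemyd, but this rested in large part on 1 array. Of 30 measured genes 13 were higher, against 3.21% of all genes, none was lower and all 30 differences were above 0, with a median of 0.35. Per-array means were 10.01, 10.04, 10.10, 10.02 and 10.07 in Largemyd and 9.90, 9.80, 9.79, 9.86 and 9.07 in Dmdmdx, which left the groups apart but Dmdmdx replicate 5 far below the others. Without it the median was 0.19, and Ucp3 (0.92) and Cpt2 (0.34), the inner carnitine transferase, were called. For 10 of the 30 genes every Largemyd array lay above all 5 Dmdmdx arrays, against 4.77% of all genes. The count was also 10 without replicate 5, against 5.66%, and leaving out an array cannot lower it. Fabp3 read 12.16, 12.34, 12.13, 12.08 and 12.17 in Largemyd and 11.73, 11.50, 11.57, 11.82 and 9.57 in Dmdmdx. Acaa2, the last enzyme of the beta-oxidation cycle, was 0.51 ± 0.12 higher (adjusted p = 0.0078), and Acadvl and Acadl, dehydrogenases for very long and long chains, 0.49 ± 0.11 and 0.47 ± 0.11 higher (adjusted p = 0.0039 and 0.0067). Mlycd, which removes malonyl-CoA, the brake on fatty acid entry, was 0.57 ± 0.16 higher (adjusted p = 0.033). In C57Bl/6 arrays the list averaged 10.28 to 10.38, above both mutants, and in double mutants 9.75 to 9.90.

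The respiratory chain and the citrate cycle gave fewer calls. Of 71 oxidative phosphorylation genes 8 were higher, against 3.21% of all genes, among them Sdhc of complex II (0.50 ± 0.11, adjusted p = 0.0052), Uqcrfs1 and Uqcrq of complex III (0.43 ± 0.13 each, adjusted p = 0.037 and 0.044), Ndufa8 of complex I (0.40 ± 0.12, adjusted p = 0.044), and Cox5b and Cox4i1 of complex IV (0.39 ± 0.09 and 0.38 ± 0.10, adjusted p = 0.0089 and 0.024). The median was 0.21 with replicate 5 and 0.04 without it, where no member was called. Per-array means were 11.45 to 11.51 in Largemyd, 11.37 to 11.44 in Dmdmdx replicates 1 to 4 and 10.68 in replicate 5. Dlst, a citrate cycle enzyme, was the 1 called gene of 25 in that list (0.25 ± 0.07, adjusted p = 0.043). Ldhb, the heart form of lactate dehydrogenase, was the 1 called gene of 25 in glycolysis (0.59 ± 0.18, adjusted p = 0.049), while Aldoa and Ldha, enzymes of the main glycolytic route, gave 0.15 ± 0.06 and 0.09 ± 0.08 (adjusted p = 0.11 and 0.52). None of these was called without replicate 5, and a single call in 25 genes lies near the 3.21% of all genes called higher.

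Interferon-induced genes lay lower in Largemyd. Of 35 measured, 7 were lower against 1.03% of all genes, none was higher, and the median was -0.47 with 33 differences below 0. Per-array means were 7.80, 7.99, 8.14, 8.31 and 7.97 in Largemyd and 8.32, 8.75, 8.38, 8.40 and 9.04 in Dmdmdx, so the groups came close but did not overlap. C57Bl/6 arrays averaged 7.75 to 8.10 and double mutants 8.09 to 8.45. Without Dmdmdx replicate 5 the median was -0.30 and none of the 35 was called. For 11 of them every Largemyd array lay below all 5 Dmdmdx arrays, against 2.41% of all genes. The count was also 11 without replicate 5, against 3.01%, and leaving out an array cannot lower it. Dmdmdx replicate 5 was also the highest for B cell and marrow markers. Replicate 2, next for interferon-induced genes at 8.75, averaged 6.85 for marrow and 6.58 for B cell markers. Replicate 3, at 9.80 for marrow and 7.09 for B cell markers, averaged 8.38 for interferon-induced genes. The part of these tissues was not tested.

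Rsad2, viperin, an antiviral enzyme, read 7.08, 7.43, 7.37, 8.10 and 7.90 in Largemyd and 8.49, 9.04, 9.08, 8.66 and 10.92 in Dmdmdx (3.16-fold lower, -1.66 ± 0.38, adjusted p = 0.0063; -1.24 without replicate 5). Irf7, the factor that amplifies the interferon response, read 7.57, 7.87, 8.04, 8.46 and 7.59 in Largemyd and 8.56, 9.19, 8.86, 8.97 and 9.56 in Dmdmdx (-1.13 ± 0.32, adjusted p = 0.033; -0.99 without replicate 5). In both, the groups did not overlap. Trim30a was 1.03 ± 0.26 lower on the log2 scale (adjusted p = 0.013), Rtp4 0.90 ± 0.27 lower (adjusted p = 0.044), Cmpk2, the neighbour of Rsad2, 0.80 ± 0.22 lower (adjusted p = 0.026) and Oas3, which makes the second messenger 2-5A, 0.73 ± 0.21 lower (adjusted p = 0.035). Oas2 was also called (-0.69 ± 0.19, adjusted p = 0.021; named after its values were seen).

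Interferon-induced promoters often hold the interferon-stimulated response element, here searched as GAAA, any 2 bases and GAAA again, on both strands in the 250 bases before each RefSeq start (GRCm38.p6). Of the 7 lower genes 5 had a promoter there and 3 of those, Oas3, Rsad2 and Trim30a, held the letters; of all measured list members with a promoter, 10 of 25 did. Counted by gene in the same way, 3.4% of all tested genes with a promoter held them. Counted by promoter, 2.98% of all 32851 RefSeq promoters given did. The 3 promoters are shown because they belong to the genes that differed and carry the element, with the match in capitals.
Rsad2, chr12:26456453-26456702, minus strand: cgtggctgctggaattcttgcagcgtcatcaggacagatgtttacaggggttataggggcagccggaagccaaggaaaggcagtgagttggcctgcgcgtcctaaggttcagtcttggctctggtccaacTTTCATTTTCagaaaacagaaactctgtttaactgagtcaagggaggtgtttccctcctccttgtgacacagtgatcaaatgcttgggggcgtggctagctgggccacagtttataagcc
Oas3, chr5:120777660-120777909, minus strand: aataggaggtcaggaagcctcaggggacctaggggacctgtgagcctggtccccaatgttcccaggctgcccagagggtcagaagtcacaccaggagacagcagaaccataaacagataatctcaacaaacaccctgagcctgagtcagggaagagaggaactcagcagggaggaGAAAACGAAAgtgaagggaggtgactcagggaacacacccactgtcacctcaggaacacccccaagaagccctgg
Trim30a, chr7:104465194-104465443, minus strand: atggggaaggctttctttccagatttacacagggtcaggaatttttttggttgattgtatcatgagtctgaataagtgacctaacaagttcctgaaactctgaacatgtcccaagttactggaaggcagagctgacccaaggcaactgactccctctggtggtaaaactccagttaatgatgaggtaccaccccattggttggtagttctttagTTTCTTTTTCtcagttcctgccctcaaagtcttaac
The match begins 120, 75 and 36 bases before the start in Rsad2, Oas3 and Trim30a. In Oas3 the GAAA pair lies on the gene's own strand and in the other 2 on the opposite one. Trim30a has another start in the table, whose promoter held no match. This is a description of the letters only, since no binding was measured.

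H2-Ea was the 1 called gene of 15 in the histocompatibility list, against 3.21% of all genes called higher. The median of the list was -0.30. B2m, the light chain of class I, gave -0.23 ± 0.09 (adjusted p = 0.14) and H2-Aa, a class II chain, -0.29 ± 0.29 (adjusted p = 0.60). These genes have close relatives, and the probe sets may not separate them.

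Macrophage markers leaned lower in Largemyd with few calls. Of 35 measured, Ccr2 and Chil3 were lower, against 1.03% of all genes, none was higher, and the median was -0.24 with 6 differences above 0. Their per-array means were 9.21, 9.47, 9.50, 9.39 and 9.16 in Largemyd and 9.53, 10.01, 9.62, 9.75 and 9.63 in Dmdmdx, against 7.68 to 8.57 in C57Bl/6. Both mutants thus lay above normal muscle. The Largemyd and Dmdmdx means came close, at 9.50 and 9.53, but did not overlap. Ccr2, the receptor that brings monocytes out of the blood, read 8.28, 8.88, 8.94, 8.72 and 8.38 in Largemyd and 9.59, 10.02, 9.72, 9.97 and 9.79 in Dmdmdx (-1.17 ± 0.33, adjusted p = 0.028). Replicate 5 was not extreme for Ccr2 and the difference was -1.18 without it, though it was not called there. For 7 of the 35 markers every Largemyd array lay below all 5 Dmdmdx arrays, against 2.41% of all genes. For Dmdmdx replicates 1 to 4 the count was 10, against 3.01%, and leaving out an array cannot lower it. Of 13 mast cell and eosinophil markers 3 were lower, against 1.03% of all genes. They were the eosinophil genes Ear6 (-2.15 ± 0.62, adjusted p = 0.034), Prg2 (-1.99 ± 0.61, adjusted p = 0.048) and Ccr3 (-1.20 ± 0.33, adjusted p = 0.023). Ear6 and Prg2 stood at 9.99 and 9.63 in Dmdmdx replicate 3 and at 11.62 and 11.40 in replicate 5, the arrays with marrow markers, and at 5.72 to 7.69 in the other 8 arrays. Ccr3 read 6.64 to 6.88 in Largemyd and 7.31 to 7.81 in Dmdmdx replicates 1 to 4. None of the 3 was called without replicate 5.

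Of 20 marrow and neutrophil markers only Chil3 was called, against 1.03% of all genes called lower, although all 20 differences were below 0. The median was -1.98. Dmdmdx arrays were widely spread. Lcn2, a neutrophil granule protein, read 10.59, 8.56, 11.94, 7.70 and 12.60 in Dmdmdx and 7.15 to 9.26 in Largemyd (-2.41 ± 0.84, adjusted p = 0.081). No B or plasma cell, T and natural killer cell, dendritic, erythroid or bone marker was called. Of 10 cartilage markers only Acan, aggrecan, was lower, against 1.03% of all genes (-0.87 ± 0.27, adjusted p = 0.049). It was not called without replicate 5 (-0.40). Among 35 chemokines and cytokines 2 were higher, against 3.21% of all genes, and both were also called without replicate 5. Cx3cl1, the membrane-bound chemokine fractalkine, read 8.39, 8.16, 8.18, 8.11 and 8.14 in Largemyd and 7.81, 7.70, 7.66, 7.71 and 7.73 in Dmdmdx (0.47 ± 0.09, adjusted p = 0.00092). Cxcl14 was 0.74 ± 0.15 higher (adjusted p = 0.002; 0.55 without replicate 5). Among 17 complement genes Cd59a alone was called, against 3.21% of all genes called higher.

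**Figure D5:**
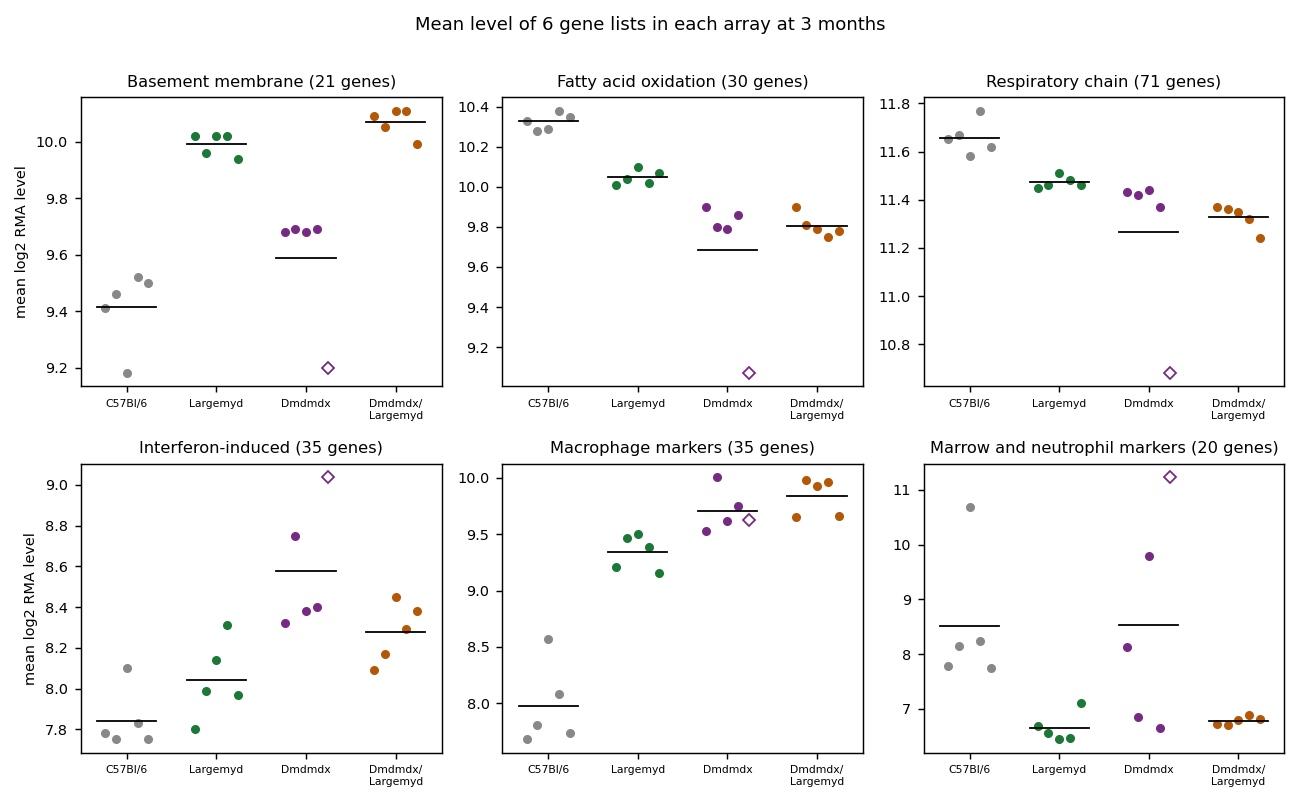
Mean level (log2 RMA) of 6 gene lists in each array of 3 months, by lineage, with black lines at the group means; the open diamond is Dmdmdx replicate 5. Basement membrane means lie at 9.94 to 10.02 in Largemyd and 9.20 to 9.69 in Dmdmdx, and Dmdmdx replicate 5 is lowest for fatty acid oxidation (9.07) and the respiratory chain (10.68) and highest for interferon-induced genes (9.04) and marrow markers (11.24).

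Genes of dividing cells lay lower in Largemyd, with all 31 differences below 0, but only 1 was called, against 1.03% of all genes called lower. Rrm2, which makes the building blocks of DNA, read 7.99, 8.06, 8.53, 8.37 and 7.92 in Largemyd and 8.59, 9.33, 9.51, 8.80 and 10.84 in Dmdmdx (-1.24 ± 0.38, with an adjusted p just under the threshold that rounds to 0.05). The median of the list was -0.92, and -0.55 without replicate 5. Per-array means were 7.38 to 7.94 in Largemyd and 7.88, 8.52, 8.53, 8.09 and 10 in Dmdmdx, so the groups overlapped. C57Bl/6 arrays reached 8.92, in the array that was also high for marrow markers. Pttg1, the securin described above, went the other way from this list.

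Regeneration and fibre type genes gave few calls. Among 24 satellite cell and myoblast genes 2 were higher and 1 lower, against 3.21% and 1.03% of all genes. Cdh2, N-cadherin, was lower (-0.69 ± 0.18, adjusted p = 0.019), and Spry1, which keeps satellite cells quiet, and Notch3 were higher (0.44 ± 0.12 and 0.30 ± 0.09, adjusted p = 0.017 and 0.047). None of these 3 was called without replicate 5, with differences of -0.62, 0.26 and 0.24. Of 24 sarcomere genes of regenerating fibres Ankrd2 was the 1 called, against 3.21% of all genes called higher (0.84 ± 0.25, adjusted p = 0.038). It was not called without replicate 5 (0.41). None of 22 fast fibre, 18 slow fibre, 23 wasting or 17 clock genes was called in either direction. Atp2a1, the calcium pump of fast fibres, gave 0.05 ± 0.05 (adjusted p = 0.59) and Mb, myoglobin, 0.04 ± 0.18 (adjusted p = 0.91). Of 28 calcium handling genes 3 were higher, against 3.21% of all genes. They were the calcium channel subunits Cacnb1 and Cacng1 (0.72 ± 0.16 and 0.53 ± 0.16, adjusted p = 0.0048 and 0.041) and Stim1, the calcium store sensor (0.37 ± 0.09, adjusted p = 0.014). Cacnb1 read 9.84 to 10.28 in Largemyd and 9.70, 9.58, 9.64, 9.70 and 8.41 in Dmdmdx; without replicate 5 none of the 3 was called, with differences of 0.47, 0.26 and 0.24.

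Of 24 neuromuscular junction and denervation genes Gadd45a and Nrcam were higher (0.47 ± 0.12 and 0.47 ± 0.14, adjusted p = 0.012 and 0.039), Gadd45a also without replicate 5 (0.48), and of 22 Schwann cell genes Gldn and Gfra3 were (0.51 ± 0.12 and 0.29 ± 0.09, adjusted p = 0.0084 and 0.045). Over all genes 3.21% were higher. Gldn, gliomedin, which gathers sodium channels at nodes along the axon, was called at 21 days (0.57) and 6 months (0.51) too. At 3 months Nrcam, Gldn and Gfra3 lost their calls without replicate 5, at 0.34, 0.43 and 0.27, and 1 other Schwann cell gene, Art3, was called lower there (-0.52, against -0.25 with that array, named after its values were seen). Of 13 pericyte and smooth muscle genes 3 were higher, against 3.21% of all genes. They were Lmod1, Cspg4 and Notch3, higher by 0.35, 0.32 and 0.30 (adjusted p = 0.048, 0.047 and 0.047), and no endothelial gene was called. None of the 3 was called with array medians subtracted, with Xist as a term or without replicate 5, where the median of the list went from 0.23 to 0.11. Fat markers held 3 higher genes of 19, against 3.21% of all genes: Cidea (0.91 ± 0.23, adjusted p = 0.012), Dgat2 (0.89 ± 0.19, adjusted p = 0.0026) and Lpl (0.35 ± 0.10, adjusted p = 0.042). Dgat2, which makes triglyceride, read 10.40, 9.86, 10.36, 10.17 and 10.96 in Largemyd and 9.63, 9.22, 9.37, 9.36 and 9.70 in Dmdmdx and was 0.96 without replicate 5, still called. Cidea reached 8.53 in Largemyd replicate 5 and 6.28 to 6.60 in the other 4, so 1 array carried much of it. Cidea and Lpl were not called without Dmdmdx replicate 5 (0.75 and 0.28).

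Among 27 stress response genes 4 were higher, against 3.21% of all genes. Of the 4, 3 were tied to glutathione and thioredoxin: Gsta4 (0.59 ± 0.14, adjusted p = 0.0064), Srxn1 (0.55 ± 0.14, adjusted p = 0.01) and Txnrd1 (0.43 ± 0.10, adjusted p = 0.004). The other was Atf5, a stress-induced transcription factor (0.34 ± 0.09, adjusted p = 0.02). Gsta4 and Txnrd1 were also called without Dmdmdx replicate 5, and Srxn1 and Atf5 were not (0.45 and 0.26). Gsta4 read 8.38, 8.51, 8.73, 8.87 and 8.57 in Largemyd and 8.02, 8.05, 8.07, 8.15 and 7.80 in Dmdmdx, and C57Bl/6 mice, at 8.89, lay with Largemyd while double mutants, at 8, lay with Dmdmdx. Of 18 imprinted growth genes only Dlk1, a Notch-like protein of fetal tissue, was higher, against 3.21% of all genes (0.81 ± 0.18, adjusted p = 0.0041). It was also called without replicate 5 (0.76). Igf2 was not called (0.47 ± 0.21, adjusted p = 0.17). Of 40 growth signal genes only Igfbp4, which binds insulin-like growth factors, was higher, against 3.21% of all genes (0.38 ± 0.11, adjusted p = 0.033). It was also called without replicate 5 (0.43). Of 19 amino acid and polyamine genes Hal and Gpt (0.32 ± 0.10, adjusted p = 0.041) were higher and Sat1, which acetylates polyamines for export, lower (-0.51 ± 0.15, adjusted p = 0.035). Over all genes 3.21% were higher and 1.03% lower. Gpt and Sat1 were not called without replicate 5 (0.23 and -0.47).

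Set beside the other ages, the comparison at 3 months had the fewest calls: 1782 genes were called at 21 days (8.94%; 3.88% higher and 5.06% lower in Largemyd) and 2843 at 6 months (14.3%; 6.06% higher and 8.2% lower). Of the 845 genes, 261 were called in the same direction at 21 days (30.9% of the 3-month calls and 14.6% of those at 21 days) and 3 in the opposite one. At 6 months 192 were called in the same direction (22.7% and 6.75%) and 53 in the opposite one. Arrays of each age have their own overall level and were compared only within an age. At 6 months 3 Largemyd arrays and 1 Dmdmdx array had Xist above 8, so the sex label is in doubt there too. In all, 77 genes were called in the same direction at all 3 ages, and for 34 of these, 20 higher and 14 lower, the arrays did not overlap at any age. Over all genes the arrays did not overlap in 6.92% at 21 days and 10.5% at 6 months. Ranked by the smallest of their 3 differences, the first higher ones were H2-Ea, Hal, Pttg1, Ocel1, Fblim1 and Kcna1; the first lower ones were Lrmda, Olfr1372-ps1, Arl14ep, Cyb5r4, B3gnt3 and Mettl15. Kcna1, a potassium channel, was 0.81, 0.57 and 0.58 higher at 21 days, 3 months and 6 months. Cyb5r4, a reductase, was 1.01, 0.77 and 0.83 lower on the log2 scale.

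The difference at 3 months was tested against that at 21 days for each gene, and 41 genes were called (0.206%), 34 above 0 and 7 below. Cd28, a costimulatory receptor of T cells, was -1.65 at 21 days and -0.02 at 3 months, a change of 1.63 (adjusted p = 4.4e-06). Tpsab1, a mast cell tryptase, was 1.87 higher in Largemyd at 21 days and 0.54 higher at 3 months, a change of -1.33 (adjusted p = 0.0013). These 2 changes were also called without Dmdmdx replicates 3, 4 and 5. Agtr2, an angiotensin receptor, fell from 1.24 to 0.05 (adjusted p = 0.014). Probe sets of the microRNA loci Mir434 and Mir134 on chromosome 12 went from 1.05 and 0.99 to 0.11 and 0.12 (adjusted p = 0.026 and 0.039), and that of Mir7-1 from 0.31 to -0.47 (adjusted p = 0.042). Such probe sets read the precursor's locus, not the mature microRNA. Tmem88, Mrpl35, Slc46a3 and Siae were the other large upward changes, of 0.85, 0.84, 0.70 and 0.67 (adjusted p = 0.011, 0.046, 0.038 and 0.039), and Tdo2 changed by -0.63 (adjusted p = 0.039). Without the arrays of high Xist 20 genes were called. Of the changes from 21 days named here, only those of Cd28, Tpsab1 and Tdo2 were among them.

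Against 6 months 2025 genes were called (10.2%; 7.69% above 0 and 2.47% below), but 13 once the 11 arrays of the series with Xist above 8 were left out, and none of the changes from 6 months named here was among those 13. Genes linked to sex and B cells were among the largest changes. Xist changed by -5.14 (adjusted p = 0.026) and the Y-linked Uty and Kdm5d by 3.43 and 1.95 (adjusted p = 0.047 and 0.017). Immunoglobulin and B cell genes Igkv10-96, Igkv9-120, Jchain, Cd79b and Igha changed by -4.99, -3.74, -3.40, -3.28 and -3.28 (adjusted p = 0.0089, 0.031, 0.012, 0.031 and 0.029). Igkv10-96 was highest in Dmdmdx replicate 5 at 3 months, at 9.39, and higher in Largemyd at 6 months by 3.39. Fast fibre genes had no call at 3 months, but at 6 months 19 of 22 were lower in Largemyd, with 16 changes between the ages called. Calcium handling genes showed 3 higher at 3 months, 19 of 28 lower at 6 months and 18 called changes. For oxidative phosphorylation these counts were 8 higher, 21 of 71 lower and 33. Beside these genes, 14 of 19 fat markers (median 1.22), 6 of 9 mammary epithelium markers (median 0.78) and 6 of 16 B and plasma cell markers (median 1.39) were higher in Largemyd at 6 months, and their part in these counts was not tested. Over all genes 6.06% were higher and 8.2% lower in Largemyd at 6 months. Plcd4, Lrtm1 and Prkag3, the last a muscle subunit of the energy sensor AMPK, changed by 1.83, 1.61 and 1.56 (adjusted p = 0.012, 0.00085 and 0.0022), and Mmp12, a macrophage elastase, by 1.75 (adjusted p = 0.016). None of these 4 was called at 3 months itself.

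In the dystrophin complex, Dmd was higher at all 3 ages (1.09, 1.08 and 0.53), and neither test between ages called it. Dag1 was 0.01, 0.27 and -0.33 at 21 days, 3 months and 6 months, lower in Largemyd at 6 months (adjusted p = 0.025) and changed between 3 and 6 months (0.60, adjusted p = 0.0054). Utrn was 0.07, -0.04 and 0.30, higher at 6 months (adjusted p = 0.0028) and changed from 3 months (-0.34, adjusted p = 0.026). Basement membrane genes, with 13 members called at 3 months, had 1 higher at 21 days and 3 at 6 months, and 2 changes called against 6 months, those of Lama2 (0.57, adjusted p = 0.045) and Nid2 (0.58, adjusted p = 0.028). Interferon-induced genes had 26 of 35 lower at 21 days (median -0.74), 7 lower at 3 months (median -0.47) and 1 higher at 6 months (median -0.13), and 1 change against 6 months was called. Over all genes 3.88% were higher and 5.06% lower at 21 days, 3.21% and 1.03% at 3 months, and 6.06% and 8.2% at 6 months. The changes of Dag1, Utrn, Lama2 and Nid2 against 6 months were not called without the arrays of high Xist.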

How the data were processed

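RNA from the calf muscle of single mice was hybridised to Affymetrix Mouse Gene 1.0 ST arrays, 1 array a mouse. The deposited values are log2 expression levels that the authors made by RMA in Affymetrix Expression Console, per the submitters' processing notes. No counts exist, so the number of arrays limits the precision. Array means ran from 7.19 to 7.27 at 3 months, from 6.78 to 6.81 at 21 days and from 7.32 to 7.37 at 6 months, and levels were compared only within an age. Of 35556 probe sets, 21789 had 1 gene symbol, 1621 had several and 12146 had none in the platform annotation, and 21698 of the first were matched by Entrez identifier. Each of the 19938 genes was read from a single probe set; where several existed (999 genes), that of highest average across the 60 arrays was used. 1 gene is not reported here.

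Group means of the 12 groups were fitted over all 60 arrays with limma 3.58.1 (lmFit and eBayes, 48 residual degrees of freedom, R 4.3.3), and p-values were adjusted by Benjamini-Hochberg within each contrast. The deposited log2 values were not rescaled. Tables and plots were made with Python 3.11.15, pandas 2.3.3 and matplotlib 3.10.9. In data simulated for the 3-month comparison over 19938 genes (10 draws), changes of 0.5, 1 and 2 on the log2 scale were recovered in 73.1%, 96.0% and 99.2% of cases, and 5.23% of calls were false. The simulated noise was normal and independent, with the same spread per gene in all groups. No simulated array stood apart as Dmdmdx replicate 5 did, so these shares do not measure false calls among the genes called here.

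The labels name 1 animal per array. P-values and standard errors rest on the spread between animals within a group, pooled over all 12 groups and moderated by limma. They do not measure the spread of the 10 compared mice alone. Named genes are the 12 largest rises and 12 largest falls without overlap, Dmd, Utrn, Dag1 and genes of sex, up to 6 called members of each of 44 gene lists (where fewer than 2 were called, the 2 with the highest mean level), the 6 largest age differences a direction and 6 genes a direction ranked by their smallest difference over the ages; predicted genes were left out. Genes called in every setting, and members of the main lists named beyond that rule, were chosen after their values were seen. The members and lists were chosen with earlier results of these data known. The 44 lists held 995 distinct genes, of which 917 were measured. Alternatives were other sets of arrays, median scaling, array weights, a filter on low genes, the mean of probe sets, an Xist term and leaving out each array. Promoters and gene order came from RefSeq tables of GRCm38.p6.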

Additional observations from a re-analysis of the deposited data

Results flagged for a closer look

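In each group of 5 arrays, genes named above were examined for a highest or lowest array whose gap to its nearest neighbour took an unusually large share of the group's range (Dixon's test at 95%), a share printed in parentheses after each name. Chance gives about 1 such group in 20, and 68 of 318 groups met it, most of them with Dmdmdx replicate 5 as the array apart. That array was the low one for basement membrane and other matrix genes: Col15a1 (0.77), Col4a1 (0.907), Col4a2 (0.886), Fbln2 (0.809), Fbln7 (0.77), Hmcn2 (0.859), Hspg2 (0.726), Lama2 (0.88), Lamb1 (0.781), Lamb2 (0.823), Lamc1 (0.792), Nid1 (0.764) and Pdgfrb (0.72). That array was the low one for genes of fatty acid and energy metabolism: Acaa2 (0.753), Acadl (0.823), Acadvl (0.902), Aldoa (0.714), Ckm (0.898), Cox5b (0.795), Cpt2 (0.834), Fabp3 (0.855), Ldha (0.756), Mlycd (0.916), Ndufa8 (0.817), Prkag3 (0.829), Sdhc (0.834) and Uqcrq (0.806). That array was the low one for fibre, calcium and membrane complex genes: Ankrd2 (0.846), Atp2a1 (0.88), Cacnb1 (0.91), Cacng1 (0.783), Dag1 (0.713), Dmd (0.892), Lrtm1 (0.72), Mb (0.768), Pomgnt1 (0.727), Pomgnt2 (0.781), Sgca (0.898) and Stim1 (0.9). It was also the low one for Art3 (0.864), Cidea (0.909), Igf2 (0.815), Mrpl35 (0.784), Serinc2 (0.852), Spry1 (0.731) and Tmem88 (0.761). It was the high one for Ccr3 (0.742), Oas3 (0.777), Pttg1 (0.78), Rsad2 (0.755) and Slfn4 (0.863). Among list means it was low for basement membrane genes (0.98), fatty acid oxidation (0.867), the respiratory chain (0.908), the regenerating sarcomere list (0.87) and fast fibre genes (0.945) and high for B and plasma cell markers (0.833).

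Other arrays stood apart for fewer genes. Dmdmdx replicate 2 stood high for Sh2d1b1 (0.715). Dmdmdx replicate 3 stood high for Galnt11 (0.72). Largemyd replicate 1 stood high for Cx3cl1 (0.74), Mir434 (0.736) and Nipal3 (0.721). Largemyd replicate 1 stood low for Atp2a1 (0.746), Nxpe4 (0.755) and Snord73b (0.789). Largemyd replicate 2 stood high for Cxcl14 (0.736). Largemyd replicate 4 stood high for Cmpk2 (0.829). Largemyd replicate 5 stood high for Cd79b (0.73), Cidea (0.856), Igha (0.78), Igkv9-120 (0.872) and Jchain (0.849). Largemyd replicate 5 stood low for Glo1 (0.786) and Lrtm1 (0.747).

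For other genes the Largemyd minus Dmdmdx difference itself differed between ages, by limma's test of that change. From 21 days to 3 months it went up in log2 for Cd28 (1.63), Lrrc3b (0.65), Mrpl35 (0.84), Siae (0.67), Slc46a3 (0.70) and Tmem88 (0.85), and down for Agtr2 (-1.19), Mir134 (-0.88), Mir434 (-0.94), Mir7-1 (-0.78), Tdo2 (-0.63) and Tpsab1 (-1.33). The 3-month difference lay above that at 6 months for genes of contraction, calcium and energy use, namely Acadvl (0.56), Aldoa (0.33), Atp2a1 (0.35), Cacnb1 (1.04), Cacng1 (1.04), Ckm (0.40), Cox4i1 (0.58), Dlst (0.56), Ldha (0.35), Lrtm1 (1.61), Ndufa8 (0.67), Plcd4 (1.83), Prkag3 (1.56), Sdhc (0.50), Stim1 (0.69), Ucp3 (1.38), Uqcrfs1 (0.89) and Uqcrq (0.60). It also lay above it for Dag1 (0.60), Dolk (0.39), Fam20b (0.35), Fgfrl1 (0.75), Galnt11 (0.25), Glo1 (0.80), Hmcn2 (0.92), Kdm5d (1.95), Lama2 (0.57), Lrrc3b (0.52), Mmp12 (1.75), Mmp19 (0.74), Nid2 (0.58), Nipal3 (0.38), Pomgnt1 (0.54), Pomgnt2 (0.49), Serinc2 (1.15), Sgca (1.10), Spry1 (0.67), Txnrd1 (0.65) and Uty (3.43). It lay below it for Xist (-5.14), Cd79b (-3.28), Igha (-3.28), Igkv10-96 (-4.99), Igkv9-120 (-3.74) and Jchain (-3.40), and for Acan (-1.12), Dgat2 (-0.87), Igfbp4 (-0.67), Sh2d1b1 (-1.06) and Utrn (-0.34). Arrays with Xist above 8 bear on the tests against 6 months, since 13 genes were called in all once they were left out, none of them named here. Against 21 days 20 genes were called without these arrays, and of those named here only Cd28, Tdo2 and Tpsab1.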

How the results depend on the processing

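None of the 123 genes called at 3 months and named here, and none of 29 named age changes followed through the settings, was called in the opposite direction under an alternative. The 845 calls of the 3-month comparison became 88 in a fit of the 10 arrays, 471 in one of the 3-month arrays, 562 with Xist as a term, 1862 with array weights, 118 without Dmdmdx replicates 3 and 5, 49 without replicates 3, 4 and 5, and 127 without arrays with high Xist. Leaving out 1 array gave 227 (Dmdmdx replicate 5) to 1394 (Dmdmdx replicate 1), with 437 and 554 without Largemyd replicates 1 and 3. The 41 changes from 21 days became 8 with medians subtracted, 233 with weights, 3 without Dmdmdx 3 and 5, 2 without 3, 4 and 5, 20 without high Xist and 19 to 61 leaving out 1 array, with 24 without Dmdmdx 1 or 3 and 27, 19 and 22 without Largemyd 2, 3 and 4. The 2025 changes against 6 months became 913 with the Xist term, 743, 334 and 13 without the same 3 sets of arrays, and 1096 (without Dmdmdx 5) to 2329 leaving out 1 array.

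Of basement membrane genes 13 were called; this became 2 in the 10 arrays, 1, 0 and 2 without those 3 sets, and 5 (without Dmdmdx 5) to 15. The 5 fibroblast genes became 1 in the 10 arrays, 3 with the Xist term, 2 with medians subtracted, 0, 0 and 1 without those sets, and 0 (Dmdmdx 5) to 6, with 2 without each of Largemyd 1 to 4. The 13 fatty acid genes became 0 in the 10 arrays, 8 in the 3-month arrays, 0 without each set, and 2 (Dmdmdx 5) to 16, with 8 without Largemyd 3. The 8 respiratory chain genes became 0, 1, 3 and 4 in the 10 arrays, the 3-month arrays, with the Xist term and with medians subtracted, 0 without each set, and 0 (Dmdmdx 5) to 13 (Dmdmdx 1), with 3, 3, 3 and 4 without Largemyd 1 to 4. The 7 lower interferon genes became 2 in the 10 arrays, 4 with the Xist term, 0 without each set, and 0 (Dmdmdx 5) to 10, with 1, 3, 3 and 4 without Largemyd 1, 2, 3 and 5 and 4 without Dmdmdx 2. Medians of these 5 lists kept their sign in all settings, at 0.32 to 0.49 for basement membrane and -0.53 to -0.30 for interferon genes. Of 123 called genes named here, 50 were also called without Dmdmdx replicate 5. The cause of these shifts was not tested, and fits with fewer arrays have less power.

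No paired analysis was possible because the replicate numbers only follow accession order and the labels tie no animals across lineages.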
